A study of Mus musculus with 15 samples.

Results

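The 40 genes described here are known targets of the transcription factor p53 other than Cdkn1a, among them genes of DNA repair, growth arrest, cell death, signalling and metabolism. They were taken from a list of p53 targets by name, and each gene was read from its brightest probe. Of the 40, 37 had a probe and 32 gave a signal above the noise of the arrays, among 11458 genes that did so in all. Gdf15, Fdxr and Gls2 had no probe with their name in the annotation used here. The probes of Btg2, Perp, Psrc1, Cpt1c and Ier5 were not above noise in enough arrays.

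p53 is held at low levels in undamaged cells by the ubiquitin ligase Mdm2. Breaks in DNA stabilise it, and it then binds promoters and introns of its targets, which stop the cell cycle, repair DNA, change metabolism or lead to cell death. Cdkn1a, the gene of the cyclin-dependent kinase inhibitor p21, is among the most widely induced p53 targets and marks the response also in non-dividing tissue such as skeletal muscle.

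RNA came from the tibialis anterior muscle of 15 male C57BL/6 mice (the C57BL/6J substrain in the study's methods), which were 8 to 10 weeks old by the labels, with 1 array per mouse. A group of 5 labelled Dox + sACVR2B had received a soluble activin receptor (sAcvR2B-Fc), which traps myostatin and activins, 48 hours before doxorubicin. A group of 5 labelled Dox had received doxorubicin, a topoisomerase poison that breaks DNA, and a group of 5 labelled Ctrl had received PBS. All injections were intraperitoneal, the mice bore no tumour, and muscles were taken 20 hours after doxorubicin or PBS.

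The Cdkn1a signal put the labels of the libraries in doubt. Earlier results of these data were known when the targets were compared. Cdkn1a signal was 4560.3, 4046.7, 3622.6, 209.1 and 358.8 in the libraries labelled Dox + sACVR2B 1 to 5, and 2359.0, 131.6, 4013.2, 3315.7 and 2694.3 in those labelled Dox 1 to 5. In the libraries labelled Ctrl 1 to 5 it was 4300.7, 294.5, 187.3, 4056.8 and 4634.2. High values thus stood under all 3 labels, and so did low ones. A limit of 1000 parted 10 libraries, with signals between 2359.0 and 4634.2, and 5 libraries between 131.6 and 358.8. Nearest to the limit were Dox 1 on the upper side and Dox + sACVR2B 5 on the lower. In this sense, 6 libraries go against their label: 3 labelled Ctrl (1, 4 and 5) were high, 1 labelled Dox (2) and 2 labelled Dox + sACVR2B (4 and 5) were low. Ddit4 (REDD1) and Foxo1, other genes that the study followed, were looked up after these values were seen. The study reported both as raised by doxorubicin in its own array analysis. It also reported higher Ddit4 by qPCR and more total FoxO1 protein by western blot, which could not be read from the arrays. Ddit4 had 525.4, 469.0, 447.2, 193.6 and 142.4 in Dox + sACVR2B 1 to 5, 359.5, 171.8, 585.1, 410.4 and 213.2 in Dox 1 to 5, and 641.3, 173.0, 159.7, 771.2 and 606.6 in Ctrl 1 to 5. Foxo1 had 375.7, 428.9, 314.4, 167.4 and 239.5 in Dox + sACVR2B 1 to 5, 304.1, 168.5, 491.4, 421.3 and 267.4 in Dox 1 to 5, and 374.8, 162.3, 182.5, 422.9 and 600.2 in Ctrl 1 to 5. Both stood higher in each of the 10 libraries of high Cdkn1a than in any of the other 5, whatever the label. By label, the log2 fold change of Dox against Ctrl was -0.26 ± 0.42 for Ddit4 and -0.01 ± 0.30 for Foxo1 (SE, limma adjusted p = 0.855 and 0.995). The targets are therefore described first by Cdkn1a signal and then by label. The 10 libraries of high and the 5 of low Cdkn1a signal were set apart by a measured gene and are not groups of the study, so no test was made between them.

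A p53 binding site joins a pair of decamers, each of 10 bases. Promoters, here 250 bases before and 50 bases after a gene's start, were read for 32 of the members from RefSeq (build GRCm38.p6), and the p53 decamer was searched on both strands. It reads the same on both strands, so each match was counted once. Below are promoters of 4 members that stood higher in every library of high Cdkn1a than in any of low Cdkn1a. They hold a decamer, in capitals, that starts before the gene's start. In a promoter of Abhd4 and in that of Rap2b, not shown, the decamer starts 1 and 33 bases after the start. Rps27l is given first, as its pair has no gap, with 1 mismatch in all. The decamers of the pair start 117 and 107 bases before the start used for this promoter, and a further one at 210 bases. Another promoter listed for Rps27l, at chr9:66945836-66946135, has an earlier start and holds no match. The letters shown for Rps27l therefore lie after that earlier start. The promoter shown lies at chr9:66946163-66946462 on the + strand. That of Ei24 lies at chr9:36797285-36797584 on the - strand, with the decamer starting 10 bases before the start. The Aen promoter shown is at chr7:78895808-78896107 on the + strand, with the decamer 121 bases before its start. In the other promoter listed for Aen, the same decamer starts 10 bases after the start. The Ckap2 promoter is at chr8:22185770-22186069 on the - strand, with the decamer 203 bases before the start.
Rps27l: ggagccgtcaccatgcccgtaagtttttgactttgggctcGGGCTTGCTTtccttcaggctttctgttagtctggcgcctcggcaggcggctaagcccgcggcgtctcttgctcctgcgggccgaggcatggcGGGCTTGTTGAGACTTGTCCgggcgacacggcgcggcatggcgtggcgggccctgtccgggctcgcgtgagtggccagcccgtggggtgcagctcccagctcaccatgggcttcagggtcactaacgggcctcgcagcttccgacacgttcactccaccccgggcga
Ei24: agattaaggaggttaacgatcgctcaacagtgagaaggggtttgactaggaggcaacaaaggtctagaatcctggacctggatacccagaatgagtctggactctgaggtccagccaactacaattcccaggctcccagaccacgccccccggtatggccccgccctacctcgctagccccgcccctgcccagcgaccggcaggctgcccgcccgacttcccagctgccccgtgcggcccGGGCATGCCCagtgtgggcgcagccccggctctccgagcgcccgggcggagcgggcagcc
Aen: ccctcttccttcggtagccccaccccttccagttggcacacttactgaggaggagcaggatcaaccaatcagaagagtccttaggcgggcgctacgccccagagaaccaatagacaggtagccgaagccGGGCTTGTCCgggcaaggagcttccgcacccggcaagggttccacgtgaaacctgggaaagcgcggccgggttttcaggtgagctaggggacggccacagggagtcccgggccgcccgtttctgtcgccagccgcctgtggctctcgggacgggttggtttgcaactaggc
Ckap2: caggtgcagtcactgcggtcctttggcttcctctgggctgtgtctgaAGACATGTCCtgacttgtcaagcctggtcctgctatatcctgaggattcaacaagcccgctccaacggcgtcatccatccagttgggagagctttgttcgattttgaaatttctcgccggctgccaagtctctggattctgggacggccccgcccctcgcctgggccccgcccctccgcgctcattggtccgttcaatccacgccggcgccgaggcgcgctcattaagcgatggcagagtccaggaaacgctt

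A decamer match stood in 8.36% of the 32851 promoters of the table and in 10 of the 46 listed for members (21.7%). By gene, it stood in 6 of the 11 members with a listed promoter whose signals did not overlap (Aen, Abhd4, Ckap2, Ei24, Rap2b and Rps27l), in 2 of 15 other measured members (Pml and Polk) and in Ier5, which was not above noise. The share by gene was not computed for the whole table. The promoters listed for Aen overlap and hold the same match, which counts in each among the 46. A pair with at most 1 mismatch was found in 1.09% of all promoters and in 3 of the 46 listed for members (6.52%). These 3 belong to Rps27l, Pml and Polk. The pair of Pml had a gap of 7 bases and that of Polk a gap of 1 base. The 8 members with no promoter in the table were Trp53inp1, Zmat3, Perp, Rrm2b, Xpc, Ddb2, Gls2 and Ptp4a3. A match describes these letters and was not tied to binding.

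Of the 32 measured targets, 14 had higher signal in every one of the 10 libraries of high Cdkn1a than in any of the 5 of low Cdkn1a, against 2.39% of all genes. Lower in every library were 0, against 1.89% of all genes. The 14 ranged in mean signal between 31.7 and 12108.7 over the 15 libraries. The median difference over the 32 was 0.35 on the log2(signal + 50) scale, and over all genes it was -0.0019. The difference was above 0 for 26 of 32 targets and for 49.5% of all genes. Differences, folds and SDs below are on that scale, which understates the change of dim genes. Folds marked "at least" have no offset and cannot be set beside the others.

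Ckap2 and Rap2b were above noise in none of the 5 libraries of low Cdkn1a, so they were kept only because they were high in the others. Among the 28 targets above noise in all 15 libraries, 12 did not overlap, against 2.83% of genes with signal in all 15.

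**Figure D1:**
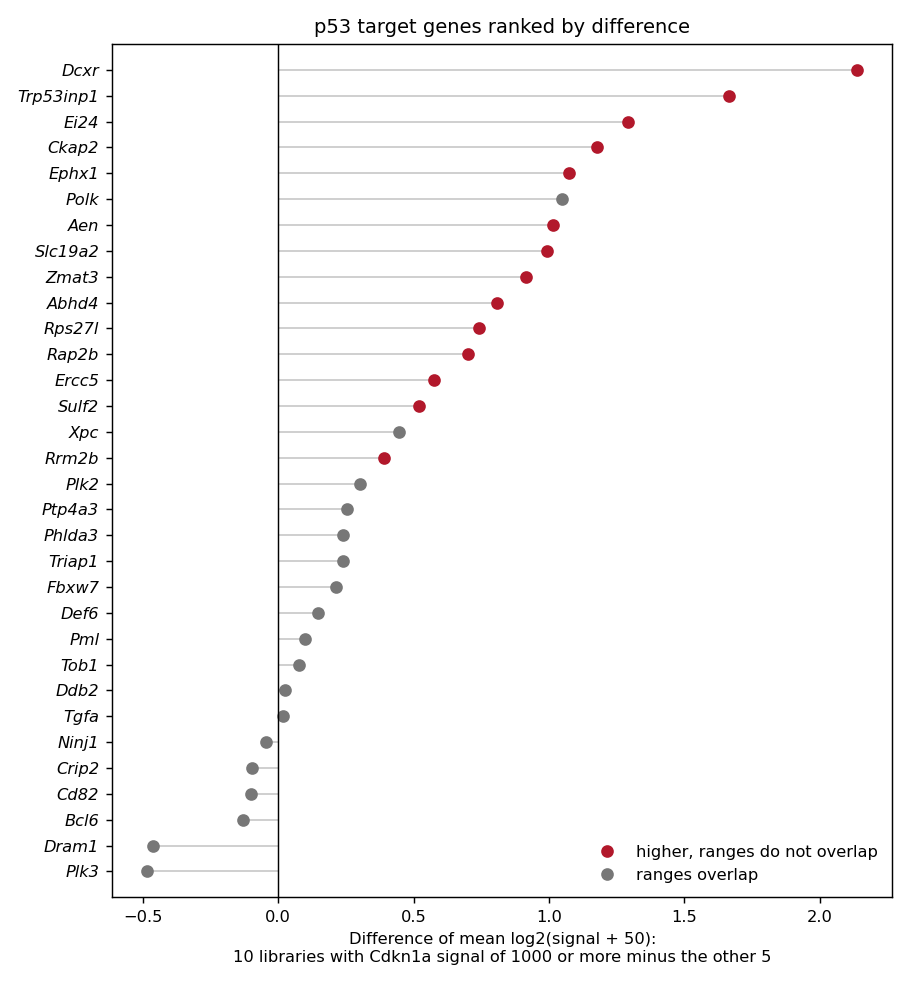
Difference of the mean log2(signal + 50) level between the 10 libraries with a Cdkn1a signal of 1000 or more and the other 5, for the 32 measured p53 targets in order of size. Red points mark the 14 whose signals did not overlap, which lie between 0.39 (Rrm2b) and 2.14 (Dcxr), and grey points the 18 that overlapped.

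Signals of the 5 libraries of low Cdkn1a are always given in the order Dox + sACVR2B 4, Dox + sACVR2B 5, Dox 2, Ctrl 2 and Ctrl 3. All 4 measured metabolic enzymes and transporters (Dcxr, Ephx1, Slc19a2 and Abhd4) were higher without overlap. Dcxr (probe ILMN_2868280), a reductase of sugars and dicarbonyls, had the largest difference of the 32 targets. Its signal lay between 400.0 and 1041.7 with a median of 586 in the 10 libraries of high Cdkn1a, against 94.9, 96.2, 91.2, 114.2 and 111.4 in the 5 of low Cdkn1a. The lowest of the 10, Dox 1, stood far above the highest of the 5, Ctrl 2. The mean level was 9.38 ± 0.36 in the 10 and 7.24 ± 0.10 in the 5 (SD), a difference of 2.14 or 4.40-fold, and the other probe of Dcxr differed by 1.86. With no offset, the ratio of its mean signals was 6.26.

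Ephx1 (ILMN_2664224), the microsomal epoxide hydrolase that detoxifies epoxides, had signals between 748.6 and 1486.6, median 1084, in the libraries of high Cdkn1a and 462.3, 541.8, 628.0, 367.0 and 516.3 in those of low Cdkn1a. The difference was 1.07 (2.11-fold). Its paralogue Ephx2, the soluble epoxide hydrolase, differed by -0.13 and overlapped. Slc19a2 (ILMN_1250531), the thiamine transporter, reached 554.5 to 1506.3, median 915, with high Cdkn1a, against 420.8, 363.7, 471.6, 488.1 and 478.5 with low Cdkn1a, a difference of 0.99 (1.99-fold). Abhd4 (ILMN_2713464), a lipase that acts on N-acyl phospholipids, came close to overlap. It had 256.5 in its lowest library of high Cdkn1a, Dox 1, with a median of 404 and a highest signal of 696.7, against 226.2, 217.3, 250.8, 252.5 and 199.8 in the libraries of low Cdkn1a. The difference of the means was 0.81 (1.75-fold). Cpt1c, the brain form of carnitine palmitoyltransferase, lay between -3.4 and 23.8 over the 15 libraries and was not above noise.

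Among the p53 cofactors and genes of apoptosis and survival, 5 of 10 measured members did not overlap, and they include the next largest differences. Trp53inp1 (ILMN_2506012), a nuclear protein that works with p53 in cell death and autophagy, had signals between 632.1 and 1657.8, median 1042, with high Cdkn1a. In the libraries of low Cdkn1a it had 252.6, 333.0, 297.7, 257.4 and 311.5. The difference was 1.66 (3.17-fold), with SDs of 0.47 and 0.15, and 1.41 at its other probe. Its paralogue Trp53inp2, which was brighter throughout with medians of 4915 and 5677, differed by -0.15 and overlapped.

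Ei24 (ILMN_2953677), a protein of the endoplasmic reticulum with a role in autophagy, had 3300.0 to 5994.2, median 4428, with high Cdkn1a, against 1676.9, 1940.9, 1898.2, 1677.8 and 1821.3 with low Cdkn1a. It differed by 1.29 (2.45-fold) and by 1.35 at its other probe. Aen (ILMN_2924088), the apoptosis-enhancing nuclease, was dim in all libraries. Its signal was between 70.4 and 149.4, median 94.1, in libraries of high Cdkn1a and 17.4, 24.3, 26.6, 18.3 and 22.2 in those of low Cdkn1a. The difference of 1.01 (2.02-fold) depends on the offset, as it was 1.55 with an offset of 16 and 0.68 with one of 100. With no offset, the ratio of its mean signals was 4.43. The other 2 probes of Aen differed by 0.70 and 0.38, and the median over its probes by 0.62. Zmat3 (ILMN_2418426), a zinc finger protein that binds RNA, had signals between 666.3 and 1500.0, median 817, with high Cdkn1a, and 502.4, 415.7, 397.4, 375.0 and 420.5 with low Cdkn1a. It differed by 0.92 (1.89-fold).

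Rps27l (ILMN_2624280), a ribosomal protein close in sequence to Rps27, was the brightest target of the list. It had between 12780.7 and 16403.1, median 13556, in the libraries of high Cdkn1a, against 9795.8, 7740.0, 8187.9, 7740.0 and 8326.2 in those of low Cdkn1a. The spread within each set was small (SD 0.12 and 0.14) beside the difference of 0.74 (1.67-fold). No probe for Rps27 itself was kept.

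**Figure D2:**
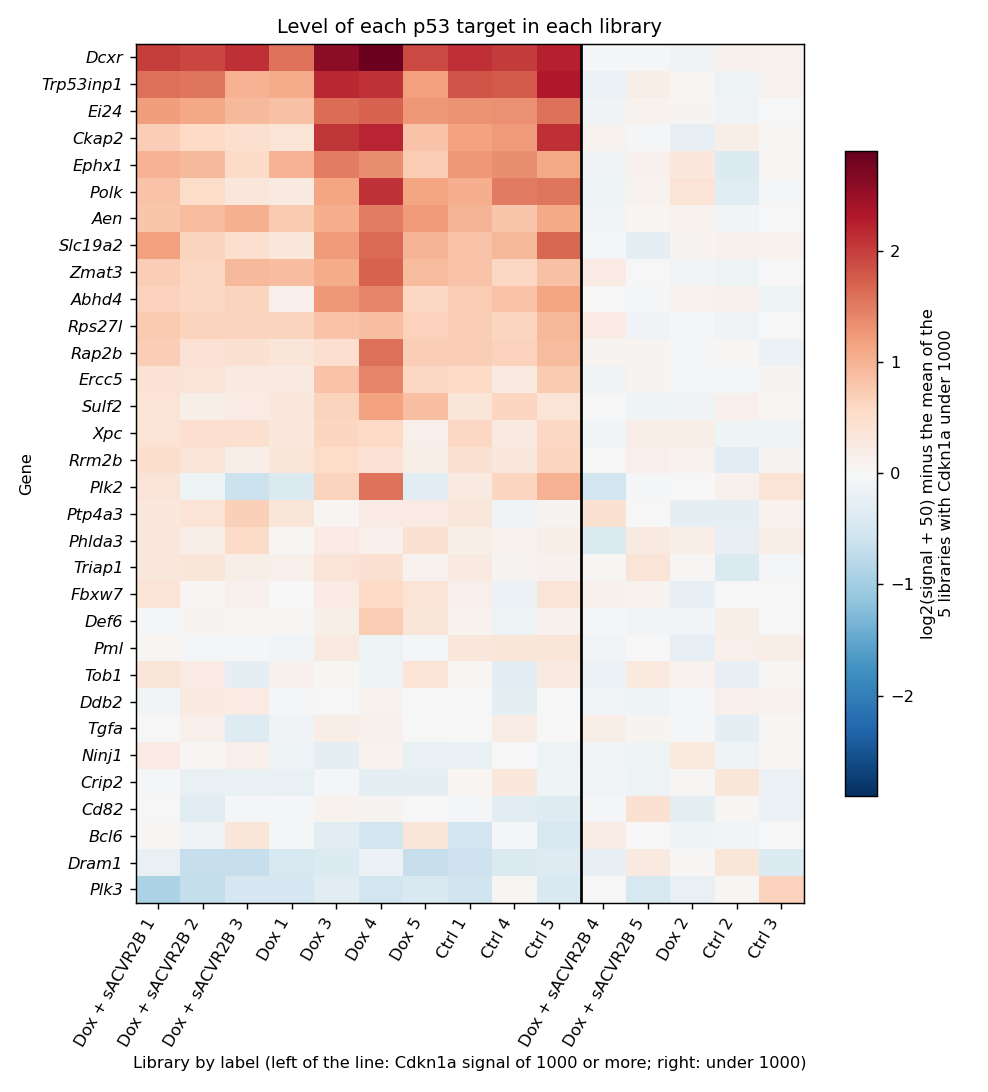
Level of the 32 measured targets (rows, in order of difference) in each of the 15 libraries (columns), as log2(signal + 50) minus the mean of the 5 libraries of low Cdkn1a signal, which are right of the line. The upper rows are red in all 10 libraries left of the line whatever their label, deepest in Dox 4 for many, and the rows below Rrm2b mix red and blue.

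The other 5 measured members of this role were flat or lower. Phlda3 (median signals 2268 with high and 2291 with low Cdkn1a), a repressor of the kinase Akt, differed by 0.24 in means and by -0.01 in medians and overlapped. Its signals were between 2043.1 and 2935.3 with high Cdkn1a and 1477.9, 2394.2, 2292.3, 1679.3 and 2290.7 with low Cdkn1a. Triap1, a mitochondrial lipid carrier that favours survival, differed by 0.24, with 691.2 to 897.6, median 761, with high Cdkn1a, against 664.7, 861.4, 671.5, 471.9 and 631.5 with low Cdkn1a. Without Dox + sACVR2B 5 the signals of Triap1 no longer overlapped. The differences of Phlda3 and Triap1 were above those of 88.77% and 88.55% of all genes. Pml, the organiser of nuclear bodies, differed by 0.10, and Ninj1, a protein of plasma membrane rupture, by -0.04 at signals near noise. Dram1, a lysosomal protein of autophagy, was lower on average, at -0.46, but overlapped. Its signals were between 89.2 and 148.6, median 114, with high Cdkn1a and 139.2, 214.6, 177.2, 234.4 and 118.9 with low Cdkn1a. Perp, a membrane protein of cell contacts, lay between -13.7 and 7.6 and was not above noise.

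In DNA repair and nucleotide supply, 2 of 5 members did not overlap, and all 5 had a difference above 0. Ercc5 (ILMN_2769261), the endonuclease that cuts 3′ of a lesion in nucleotide excision repair, had signals between 643.9 and 1514.8, median 778, with high Cdkn1a and 490.9, 570.8, 524.1, 515.2 and 570.8 with low Cdkn1a. It differed by 0.58 (1.49-fold). Rrm2b (ILMN_2994744), the p53-inducible small subunit of ribonucleotide reductase, had the smallest difference of the 14, at 0.39 (1.31-fold). It lay between 914.7 and 1254.0, median 1069, with high Cdkn1a and at 791.9, 895.2, 858.5, 640.1 and 846.0 with low Cdkn1a, so the nearest libraries were close. The large subunit Rrm1 differed by 0.07, the S-phase small subunit Rrm2, at signals near noise, by 0.03, and both overlapped.

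Polk, a DNA polymerase that copies past lesions, had a difference of 1.05 and still overlapped. It had 248.2 in Dox 1, the lowest of the libraries of high Cdkn1a (highest 1007.3, median 479), and 275.6 in Dox 2, the highest of those of low Cdkn1a. Without Dox 2 its signals no longer overlapped. Xpc, which recognises lesions, differed by 0.45 and overlapped through Dox 5. Ddb2, which binds ultraviolet damage, differed by 0.03.

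Of the growth arrest and cell cycle genes, 1 of 6 measured members did not overlap. This was Ckap2 (ILMN_2687628), a protein of the mitotic spindle, with signals between 18.4 and 190.7, median 54.8, in the libraries of high Cdkn1a. In those of low Cdkn1a it had 5.9, -0.1, -6.2, 8.4 and 3.5, none above noise. Against the noise threshold its signal was at least 4.70-fold higher. Plk2, a polo-like kinase, differed by 0.30 with wide overlap, since its signal was 124.3 in Dox + sACVR2B 3 and 740.6 in Dox 4, both of high Cdkn1a. Plk3, of the same kinase family, was lower on average by Cdkn1a signal, at -0.48, and overlapped. Its median was 42.2 in the libraries of high Cdkn1a, with 78.6, 43.1, 60.5, 81.9 and 156.0 in those of low Cdkn1a.

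Ptp4a3, a protein phosphatase, was the second brightest target and differed by 0.25, with signals between 4867.1 and 8509.7, median 6360, with high Cdkn1a and 7215.1, 5261.9, 4385.0, 4312.9 and 5629.2 with low Cdkn1a. Tob1, an antiproliferative protein that acts on mRNA decay, differed by 0.08. Its signals were between 2320.1 and 3847.1, median 3077, with high Cdkn1a and 2557.6, 3501.7, 3093.8, 2460.8 and 2947.2 with low Cdkn1a. The 5 libraries of low Cdkn1a thus lay inside the range of the 10 for Tob1. Fbxw7, the substrate receptor of a ubiquitin ligase, differed by 0.21, and by -0.12 at its other probe. Btg2, an antiproliferative relative of Tob1, lay between -11.4 and 10.9, and Psrc1, a microtubule protein, between -4.9 and 15.9.

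Of the secreted, membrane and signalling targets, 2 of 7 measured members did not overlap. Rap2b (ILMN_1254179), a small GTPase, was at 22.2 to 119.0, median 40.2, with high Cdkn1a, against 9.7, 9.8, 5.3, 7.2 and -0.2 with low Cdkn1a, which is at least 3.16-fold higher against the noise threshold. Sulf2 (ILMN_1239293), an enzyme that removes sulfate from heparan sulfate outside the cell, had between 313.0 and 665.8, median 373, with high Cdkn1a and 273.3, 242.0, 249.2, 306.0 and 285.2 with low Cdkn1a. The difference was 0.52 (1.43-fold). Its other probe differed by 0.06, so the probes disagree. The paralogue Sulf1 differed by -0.56 and overlapped.

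The other measured members of this role were flat. Bcl6, a transcriptional repressor, differed by -0.13, with signals between 1571.4 and 2945.0, median 2166, with high Cdkn1a and 2652.7, 2265.6, 2082.3, 2147.2 and 2297.3 with low Cdkn1a. Crip2, a LIM domain protein, differed by -0.10, with signals between 1899.6 and 2839.6, median 2055, with high Cdkn1a and 2173.4, 2067.5, 2327.9, 2937.8 and 2032.4 with low Cdkn1a. The sets overlapped for both. Def6, an exchange factor for small GTPases, differed by 0.15, Cd82, a tetraspanin, by -0.10, and Tgfa, a ligand of the EGF receptor, by 0.02 at signals near noise. Ier5, an immediate early gene, lay between -11.6 and 1.5 and was not above noise.

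In all, 13 of the 32 targets overlapped and differed by less than 1.2-fold at the brightest probe, which 78.3% of all genes did. Of these, Ptp4a3 was near that limit and differed by 0.44 at its other probe, which is more than 1.2-fold. Another 3 overlapped and were higher by 1.2-fold or more (Polk, Xpc and Plk2), and 2 were lower by as much (Dram1 and Plk3). At 2-fold or more, 7 targets were higher (Dcxr, Trp53inp1, Ei24, Ckap2, Ephx1, Polk and Aen), against 0.401% of all genes. Ckap2 was kept only because it was high in those libraries, so its place in this count adds nothing. Polk overlapped. With an offset of 100, Polk and Aen fell below 2-fold, at differences of 0.92 and 0.68.

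The split was also read inside the labels, where 7 libraries labelled Dox or Dox + sACVR2B had high and 3 had low Cdkn1a, and 3 labelled Ctrl had high and 2 had low Cdkn1a. For the 14 targets without overlap over all 15 libraries, the separation inside each label follows from how they were picked and adds nothing. Their sizes inside the labels varied, as Dcxr differed by 2.21 within the doxorubicin labels and by 2.03 within the Ctrl label, and Rps27l by 0.69 and 0.82. Of the other 18 targets, 1 (Def6) was higher without overlap within the doxorubicin labels, against 2.44% of all genes that overlapped over the 15 libraries, and 0 were lower, against 3.03%. Within the Ctrl label 4 (Polk, Xpc, Triap1 and Pml) were higher without overlap, against 19.6%, and 2 (Ddb2 and Plk3) were lower, against 18.4%. The sign of the difference was the same inside both for 15 of the 18 and for 68.3% of such genes.

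**Figure D3:**
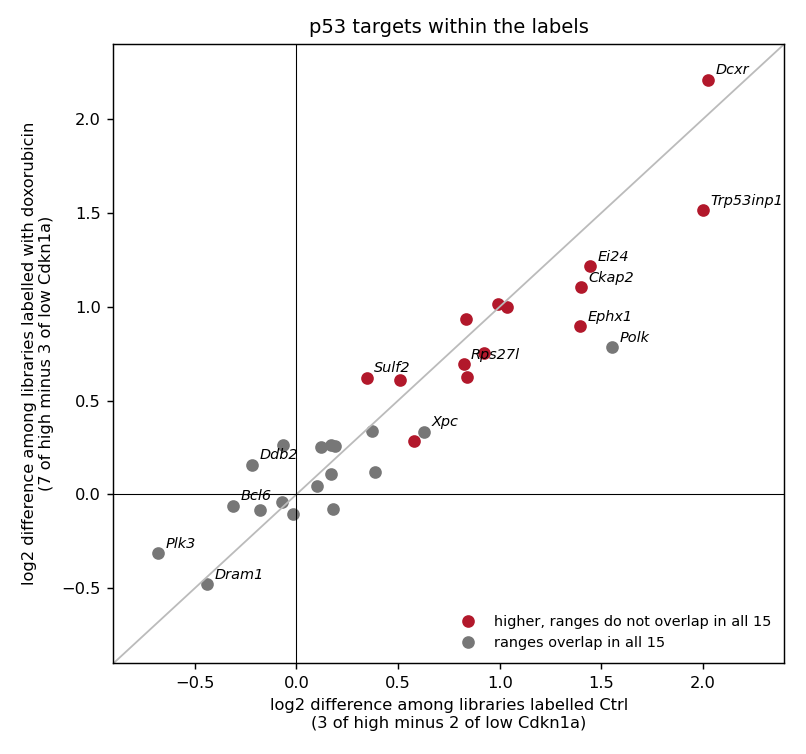
Log2 difference of the 32 targets among the libraries labelled with doxorubicin (vertical axis, 7 of high minus 3 of low Cdkn1a) against that among libraries labelled Ctrl (horizontal axis, 3 minus 2). Red points are the 14 that did not overlap over all 15 libraries, and the grey line marks equal differences. Their place above 0 on both axes follows from that choice, and the grey points lie on both sides of 0. Dcxr is at 2.21 and 2.03.

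The 10 libraries of high Cdkn1a also differed among themselves. Dox 4 had the highest signal in 9 of the 14 targets, Ctrl 5 in 4 and Dox 3 in 1. Dox 1, which had the lowest Cdkn1a of the 10, was lowest in 8. The median deviation of the 14 targets from the mean of the 10 was 0.63 in Dox 4 and -0.33 in Dox 1. Of the 14, 12 had a wider SD in the libraries of high than in those of low Cdkn1a. Zmat3 shows this, with 1500.0 in Dox 4 and 666.3 in Ctrl 4.

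Other genes of the pathway were read from a list of 24, of which 19 were measured. Cdkn1a, which made the split, and Gtse1, which was above noise in none of the 5 libraries of low Cdkn1a, were set aside. Of the other 17, 6 were higher without overlap (Mdm2, Ccng1, Fas, Ddit4, Ddit4l and Eda2r), against the 2.39% of all genes given above, and 0 lower. Eda2r passed the noise filter through the libraries of high Cdkn1a, as it had 3.1, 23.5, 27.1, 4.0 and -3.3 in the others. Ddit4 is the gene already read beside the labels. Mdm2, the ligase that restrains p53, differed by 1.02, and by 1.13 at its other probe. Ccng1, a cyclin induced by p53, differed by 0.43 at its brightest probe and by 0.87 and 0.85 at its other probes. No probe of Trp53, which encodes p53, was kept. Of 20 paralogues of the targets, 14 were measured and 0 were without overlap, with a median difference of -0.0023.

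Markers of some cell types differed between the sets as well. All 7 measured fibroblast markers (of 8) were below 0, with a median of -0.53, and their summed signal was 18710 to 30580 in the libraries of high Cdkn1a and 28110 to 35580 in those of low Cdkn1a. None of the 7 was without overlap. Their median was -0.23 within the Ctrl label and -0.67 within the doxorubicin labels. The 2 measured red cell markers (of 6) had a median of -0.69, with summed signals of 3086 to 10260 with high and 5098 to 27820 with low Cdkn1a. That median was 0.37 within the Ctrl label and -1.28 within the doxorubicin labels, so its sign changed with the label. Muscle fibre markers, 7 of 8 measured, had a median of -0.06 and 0 without overlap, at summed signals of 126000 to 152400 with high and 128400 to 151500 with low Cdkn1a, so both sets carried the label's tissue. Endothelial (8 of 8), macrophage (7 of 8), satellite cell (4 of 6), Schwann and nerve (4 of 8) and adipocyte (4 of 8) markers had medians of -0.14, -0.11, -0.16, -0.08 and 0.02, and 0 of 8 lymphocyte markers was above noise. The median of the adipocyte markers also changed sign, with 0.62 within the Ctrl label and -0.77 within the doxorubicin labels. Fewer cells of a type and less RNA per cell cannot be told apart in whole muscle, and the part of these markers in the results was not tested.

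By label, the question is what doxorubicin did, and what the soluble receptor given before it did. In limma, 0 of the 32 targets passed an adjusted p under 0.05 in any of the 3 comparisons, where 0% of the 21307 probes did too. At an unadjusted p under 0.05 there were 2 targets for Dox against Ctrl (10.0% of all probes), 5 for Dox + sACVR2B against Ctrl (8.96%) and 1 for Dox + sACVR2B against Dox (4.13%). Libraries of high and low Cdkn1a stood under each label, and the targets that parted the 2 sets most had the widest spread by label. Dcxr had a mean of 9.01 ± 1.16 in Dox and 8.56 ± 1.11 in Ctrl (SD, n = 5 each), a difference of 0.44 with a 95% interval of -0.83 to 1.72 (limma, adjusted p = 0.828).

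**Figure D4:**
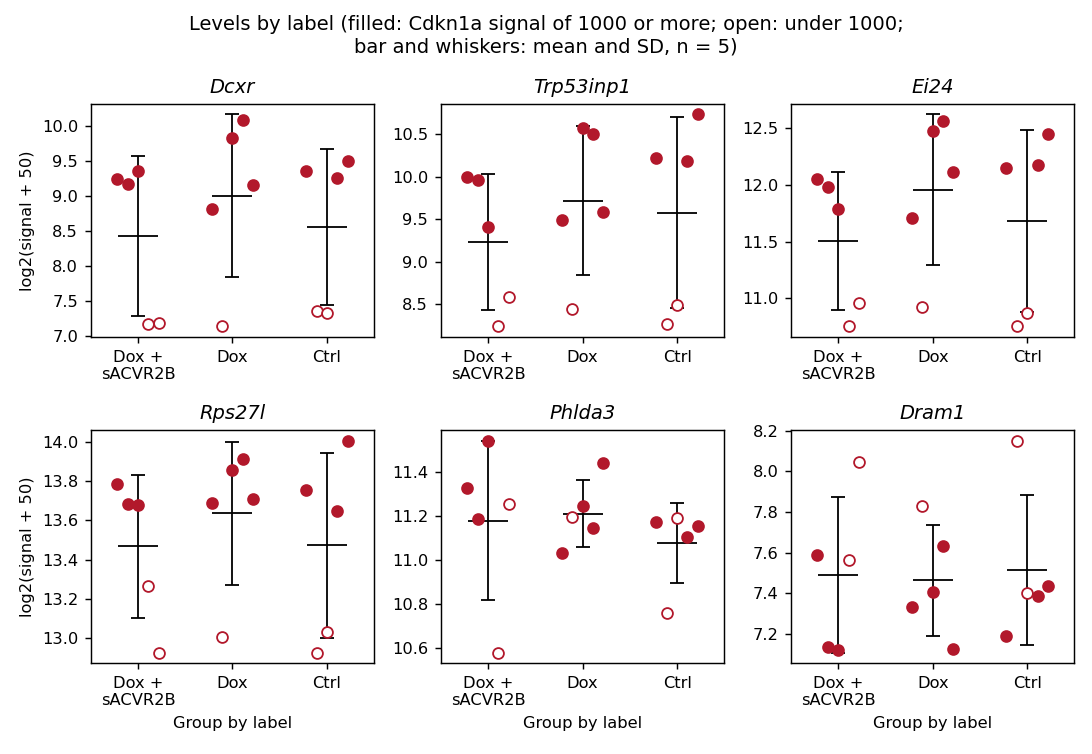
Level as log2(signal + 50) of 6 targets by label (Dox + sACVR2B, Dox and Ctrl, n = 5 each), with filled points for libraries of high and open points for those of low Cdkn1a, and bars for the mean and SD. Open points lie below all filled ones under each label for Dcxr, Trp53inp1, Ei24 and Rps27l, and Phlda3 and Dram1 mix open and filled points.

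For Dox against Ctrl, 27 of the 32 targets were above 0 and 5 below (11059 of the 21307 probes above 0). The median of the targets was 0.14, and that of all genes -0.0006. Cdkn1a was high in 4 libraries labelled Dox and in 3 labelled Ctrl, and the part of this in the count was not tested. Markers of other cell types moved in the same comparison: 5 of 8 endothelial markers were lower at an unadjusted p under 0.05 (median -0.33), 7 fibroblast markers had a median of -0.36 with none at that p, and 2 of 7 macrophage markers were higher (median 0.26). No marker passed the adjusted p in limma, and their part in the targets' values was not tested. Pml had the smallest p, with signals of 145.2, 124.7, 198.8, 137.0 and 151.5 in the libraries labelled Dox 1 to 5, against 211.1, 181.0, 186.7, 216.2 and 212.9 in Ctrl 1 to 5. Dox 3 lay inside the range of Ctrl, so the groups overlapped. The fold change was -0.33 ± 0.09 on the log2 scale (SE, limma adjusted p = 0.333). Crip2 followed, with 1964.3, 2327.9, 2227.7, 1899.6 and 1913.2 in Dox and 2364.8, 2937.8, 2032.4, 2839.6 and 2101.5 in Ctrl, at -0.23 ± 0.11 (adjusted p = 0.484). Triap1 had 721.8, 671.5, 853.8, 897.6 and 699.4 in Dox and 790.0, 471.9, 631.5, 691.2 and 709.3 in Ctrl, at 0.22 ± 0.12 (adjusted p = 0.565). The groups overlapped for both, and the fold change of Triap1 was 0.11 without Ctrl 2.

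For Dox + sACVR2B against Ctrl, 13 targets were above 0 and 19 below (10913 of the 21307 probes above 0), with a median of -0.04. Beside them, 4 of 8 endothelial markers (median -0.18) and 2 of 7 muscle fibre markers (median -0.18) were lower at an unadjusted p under 0.05, and 2 of 4 satellite cell markers (median 0.12) were higher. Pml again had the smallest p. Its signal was 165.9, 148.3, 149.5, 144.4 and 154.6 in Dox + sACVR2B 1 to 5, below all 5 libraries of Ctrl (181.0 to 216.2). The fold change was -0.31 ± 0.09 (SE, limma adjusted p = 0.455), and this was the one of the targets named by label whose label groups did not overlap. Ptp4a3 had 6495.4, 6910.2, 8509.7, 7215.1 and 5261.9 in Dox + sACVR2B and 6587.8, 4312.9, 5629.2, 4867.1 and 5570.6 in Ctrl, at 0.35 ± 0.14 (adjusted p = 0.521). Plk3 had 18.7, 30.5, 42.3, 78.6 and 43.1 in Dox + sACVR2B, against 36.3, 81.9, 156.0, 81.5 and 45.8 in Ctrl, at -0.45 ± 0.20 (adjusted p = 0.526). Both overlapped, and the fold change of Plk3 was -0.27 without Ctrl 3.

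For Dox + sACVR2B against Dox, 9 targets were above 0 and 23 below (10906 of the 21307 probes above 0), with a median of -0.14. All 7 muscle fibre markers were below 0 (median -0.13, 2 at an unadjusted p under 0.05), all 7 macrophage markers too (median -0.17, 0 at that p), and 1 of 7 fibroblast markers was higher at that p (median 0.18). These comparisons share the libraries of Dox and Ctrl. Sulf2 had 371.9, 313.0, 326.8, 273.3 and 242.0 in Dox + sACVR2B 1 to 5 and 354.3, 249.2, 453.2, 665.8 and 537.4 in Dox 1 to 5, at -0.45 ± 0.19 (SE, limma adjusted p = 0.996). Def6 had 53.1, 60.9, 58.4, 52.8 and 48.9 in Dox + sACVR2B and 57.7, 49.9, 68.3, 124.8 and 84.0 in Dox, at -0.25 ± 0.12 (adjusted p = 0.996). Ercc5 had 729.2, 709.8, 649.9, 490.9 and 570.8 in Dox + sACVR2B, against 643.9, 524.1, 985.8, 1514.8 and 831.0 in Dox, at -0.41 ± 0.22 (adjusted p = 0.996). In all 3 the highest library was Dox 4 and the groups overlapped. Without Dox 4 the fold changes were -0.30 for Sulf2, -0.13 for Def6 and -0.20 for Ercc5.

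**Figure D5:**
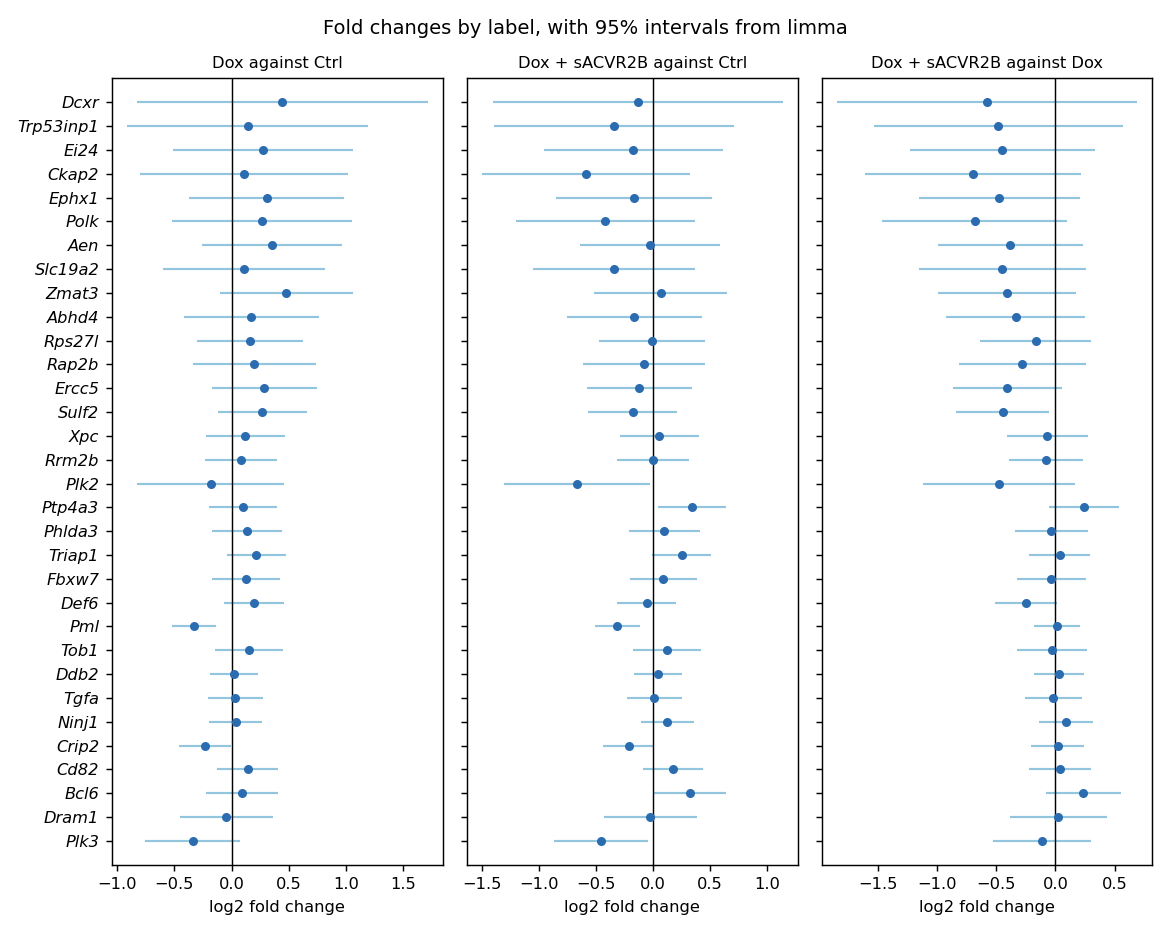
Log2 fold change of each of the 32 targets in the 3 label comparisons (limma, bars are 95% intervals, n = 5 per label), with genes in order of their difference by Cdkn1a signal. The intervals are widest for the upper genes, such as Dcxr with -0.83 to 1.72 for Dox against Ctrl, and 2, 5 and 1 of the 32 intervals leave out 0 for Dox against Ctrl, Dox + sACVR2B against Ctrl and Dox + sACVR2B against Dox.

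Without the 6 libraries whose Cdkn1a goes against their label, which is a choice made by a measured target of the same factor, 10 targets were called for Dox against Ctrl (8.86% of all probes) and 9 for Dox + sACVR2B against Ctrl (5.52%), 9 and 8 of them higher. For Dox + sACVR2B against Dox 0 were called (0% of probes). Those p-values are not independent of the choice, and only 2 libraries of Ctrl were left.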

How the data were processed

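Total RNA of tibialis anterior muscle was hybridised by the study to Illumina Sentrix MouseRef-6 v2 bead arrays, 1 per mouse. The values used here are linear signal intensity per probe, deposited by the authors after quantile normalization in Chipster (version not given in the sources used here), and 33.96% of them lie below 0. A table of non-normalized intensity was deposited too, but its column names match no sample label, and it was not used here.

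The 45281 probes were named from the platform annotation (34885 with 1 gene, 18 with several, 10378 with none). Noise was taken from the values below 0 (SD 7.52). Probes over 12.4 in 5 or more arrays were kept, 21307 in number, and with the brightest probe of each gene this gave 11458 genes. Each array had 43.8% to 43.9% of its probes above noise. Quantile normalization makes this share near equal, so it is no measure of array quality. The number of arrays limits the precision. No chip or scan is given for an array in the sources used here.

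Levels are log2(signal + 50). Label groups were compared in limma (version 3.58.1, R 4.3.3) with 1 linear model over all 15 arrays and two-sided tests, and p-values of the 21307 probes were adjusted by the method of Benjamini and Hochberg. Arrays above and below a Cdkn1a signal of 1000 were described with no test. A fold marked "at least" is the ratio of geometric means of signal (with no offset), with values of the libraries of low Cdkn1a raised to the noise threshold. The script for the comparisons was tested on simulated data.

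The members, the gene lists and the rules were chosen with earlier results of these data known. Named with values per library were the members without overlap, the 6 brightest of the rest and, per label comparison, the 3 of smallest p. Alternatives were other offsets, no filter, the median over probes, cyclic loess, other Cdkn1a limits, other limma settings, the replicate number as a block and leaving out each library.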

Additional observations from a re-analysis of the deposited data

Results flagged for a closer look

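In all, 5 values stood far from the other 4 libraries of their label, among 99 sets of 5 libraries examined on the log2(signal + 50) scale, and chance alone marks about 1 in 20 such sets. In the library labelled Dox 2, Cdkn1a was at 7.50, against 11.23 to 11.99 in the other libraries labelled Dox, and Rps27l was at 13.01, against 13.69 to 13.91. Dox 2 is the only library of that label with low Cdkn1a. In the library labelled Ctrl 2, Phlda3 was low at 10.76, against 11.10 to 11.19, and Dram1 was high at 8.15, against 7.19 to 7.43. Fbxw7 was high in Dox + sACVR2B 1 at 9.01, with 8.68 to 8.75 in the others of that label.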

How the results depend on the processing

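Without the 6 libraries whose Cdkn1a goes against their label, 10 targets were called for Dox against Ctrl and 9 for Dox + sACVR2B against Ctrl, while limma called 0 with all libraries and under every other alternative run, leaving out each library included (0 to 0). Libraries for that fit were picked by a measured value. The count of targets without overlap by Cdkn1a signal was 14 to 15 when each library was left out, which cannot lower it, with a median difference of 0.32 to 0.41. It was 12 after cyclic loess (Abhd4 and Sulf2 lost), 13 with the median over probes (Sulf2 lost) and 12 with genes above noise in all 15 arrays, an alternative chosen after seeing the data. Limits of 500 and 2000 for Cdkn1a part the same libraries. Under these alternatives none of the 14 targets without overlap turned its sign. The median over probes gave 0.62 for Aen. The dim targets Aen, Ckap2 and Rap2b moved most with the offset, to 1.55, 2.17 and 1.35 with 16.

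With the replicate number as a block, 0 targets were called in each comparison, as without it. Libraries with the same number had correlations of -0.38 to 0.35 (median -0.09, 4 of 15 over 0.1). Those with different numbers had -0.51 to 0.52 (median 0.03). The correlations are of deviations from the label means, which hold the split by Cdkn1a. They cannot show whether the number pairs the libraries.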

Other observations

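Gtse1, a regulator of p53 in the cell cycle and a member of the wider pathway list, was singled out after its values were seen. It was at 159.5 to 2284.3, median 465.7, in the libraries of high Cdkn1a and at 12.2, -5.8, -11.5, 7.2 and -7.0 in Dox + sACVR2B 4, Dox + sACVR2B 5, Dox 2, Ctrl 2 and Ctrl 3. Of its other probes, one differed by 2.01 and one by 0.05, against 3.53 for the probe shown, so the probes disagree. Fas, the death receptor, was at 601.4 to 1767.0, median 824, with high Cdkn1a and at 215.2, 272.5, 288.5, 198.3 and 223.0 in the same 5 libraries. The difference of Fas was 1.73 at this probe and 1.62 and 0.24 at the other probes. Neither gene overlapped at the probe shown. Tigar, a regulator of glycolysis, differed by -0.59 and overlapped.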
